A study of Mus musculus with 19 samples.

Results

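The stromal cells of the mouse anterior prostate were compared between mice in which Lgr5-expressing cells had been targeted by diphtheria toxin and wild type mice. The comparison used 7 of the 19 RNA sequencing libraries of the study: 4 from sorted stromal cells of Lgr5-DTR-eGFP mice and 3 from sorted stromal cells of wild type mice. Libraries were chosen by their labelled genotype and sorted population, and 10689 of the 24343 gene symbols in the tables were tested, those with at least 1 FPKM in at least 3 of the 7 libraries and no failed or capped estimate. FPKM scales fragments by the length of the transcript and the mapped total of the library, so levels of different genes may be set side by side. The Lgr5-DTR-eGFP allele places a human-type diphtheria toxin receptor and a green fluorescent protein at Lgr5, and the series' design text states that these mice received the toxin. The controls are labelled only as wild type, the labels name C57BL/6 mice from a commercial breeder, and whether the controls received toxin is not stated. Genotype, toxin and source of the animals therefore cannot be told apart. The number of changed Lgr5 copies, the age, the toxin dose, the time from toxin to harvest and the antibodies of the sort are not given in the sources used here. Whether each library is a different mouse is not stated either, and the p-values therefore reflect only library-to-library spread, part or all of which could be technical.

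Lgr5 is a receptor for R-spondins, secreted proteins that strengthen Wnt signalling. Mouse cells resist diphtheria toxin because their own receptor binds it poorly, so a cell that carries the inserted receptor takes the toxin up, stops protein synthesis and dies. Prostate stroma is made mainly of fibroblasts and smooth muscle. Its fibroblasts secrete the collagens, proteoglycans and elastic fibres of the tissue, complement and chemokines, and growth factors that act on the epithelium. In sorted bulk cells, fewer cells of a type and less RNA per cell cannot be told apart, and removal of cells was not itself measured.

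The libraries held 5.26 to 8.11 gigabases on annotated transcripts in Lgr5-DTR and 7.64 to 8.12 in wild type stromal cells, and 9973 to 10320 against 10137 to 10604 genes reached 1 FPKM. All 20 fibroblast markers were tested, with Col1a1 at 117 to 211 FPKM in Lgr5-DTR and 228 to 298 FPKM in wild type libraries. Some RNA of blood and endothelial cells was present, with erythrocyte markers summing to 0.0436 to 41.3 FPKM in Lgr5-DTR and 0.523 to 59.2 FPKM in wild type libraries. Ptprc, carried by all white blood cells, was at 0.04 to 0.31 FPKM in Lgr5-DTR and at most 0.04 FPKM in wild type, and the endothelial Pecam1 was at 0.42 to 1.40 against 0.76 to 1.22 FPKM. Epithelial RNA was present in each library and highest in the libraries numbered 1 of both groups. The 17 luminal markers summed to 550, 116, 108 and 200 FPKM in Lgr5-DTR replicates 1 to 4, against 593, 210 and 181 FPKM in wild type replicates 1 to 3. Summed over all transcripts, FPKM reached 326156 to 384776 in Lgr5-DTR and 394650 to 401252 in wild type stromal libraries, without overlap. The median difference over all genes was -0.09 on the log2(FPKM + 1) scale. TMM scaling, which sets the bulk of genes equal between libraries, moved this median to 0.01.

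Nearly every gene that passed the test was lower in the Lgr5-DTR libraries. With limma and Benjamini-Hochberg adjustment at 0.05, 118 genes were lower (1.1% of those tested) and 7 higher (0.0655%), among 1230 genes at an unadjusted p under 0.05. In all 125 the groups did not overlap, which held for 11.2% of all tested genes (9.39% lower and 1.8% higher). The median fall was -1.63, with a range of -4.40 to -0.72, and 27 of the 118 fell by at least 2 on the log2 scale. The lower genes were not confined to rare transcripts, since 97 averaged at least 5 FPKM and 22 at least 100 FPKM in wild type. Among wild type libraries, replicate 3 had the top value for 89 of these 118 genes (75.4%); over every gene tested this share was 43.1%. Leaving out single libraries moved the count of lower genes to 30 without wild type replicate 3, 35 without wild type replicate 1, 58 without wild type replicate 2, and 68, 79, 46 and 189 without Lgr5-DTR replicates 1 to 4 in turn. Of the lower genes, 26 passed in all 7 of those fits. The filter on low values was applied again in each fit. Without any 1 wild type library, 109 of the 125 calls could be tested, so the others could not pass there. With TMM scaling 85 genes were lower and 5 higher, and 90 of the 125 calls were kept. Among the 77 called genes named in the text, 16 lost the call with TMM scaling, and not all are marked where they appear. Without both libraries numbered 1, where epithelial markers were highest, 17 genes were lower and 3 higher. Of the 125 calls 108 could be tested there, and 17 were among these genes.

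**Figure D1:**
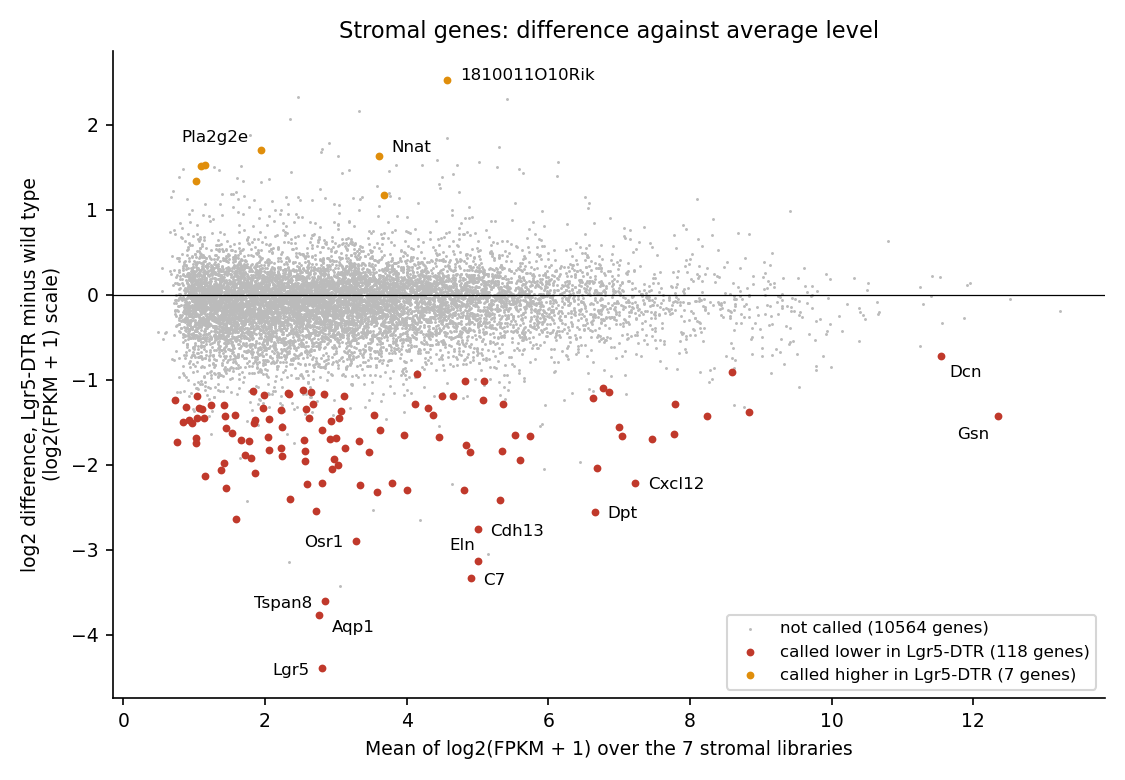
Difference between Lgr5-DTR and wild type stromal libraries on the log2(FPKM + 1) scale (vertical axis) against the mean of log2(FPKM + 1) over the 7 stromal libraries (horizontal axis), 1 point per gene tested. The 118 genes called lower (red) span low to very high levels, from Stmn4 to Dcn and Gsn, and the 7 called higher (orange) are led by 1810011O10Rik; Eln lay among the largest falls but did not pass.

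Lgr5 had the largest fall of all genes tested. It lies on chromosome 10 of mm10 at 115450314 to 115587780 and was at 0.971, 0.869, 1.32 and 0.501 FPKM in the Lgr5-DTR libraries, against 29.1, 25.8 and 77.6 FPKM in wild type. The groups were far apart, and the third wild type library stood well above the other two. The log2 difference was -4.40 (SE 0.35, limma adjusted p = 0.000318), and the exact permutation test (two-sided) gave p = 0.0286, the smallest available from the 35 splits of 4 against 3 libraries. The inserted receptor sits at Lgr5, so a changed allele and lost cells cannot be told apart in this value.

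Tspan8, whose product is a tetraspanin of the cell surface, lies 230 kilobases from Lgr5 at chromosome 10, 115817284 to 115849893. It was at 3.02, 0.241, 2.63 and 1.04 FPKM in Lgr5-DTR and at 20.2, 23.1 and 52.4 FPKM in wild type stromal cells (log2 -3.61, SE 0.44, limma adjusted p = 0.0026). Every wild type library was far above the highest Lgr5-DTR library. The 6 other genes tested within 1 megabase of Lgr5, namely Tbc1d15, Rab21, Tmem19, Thap2, Zfc3h1 and Cnot2, did not pass, with log2 differences of -0.38 to 0.44. Within 20 megabases 2 of 129 genes were called besides Lgr5 (Tspan8 and Dcn), or 1.55%, close to the 1.17% over all genes, and within 5 megabases Tspan8 was 1 of 34.

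Besides Lgr5, a pair of other markers from a list of 15 genes of periurethral and ductal mesenchyme were lower, Osr1 and Sult1e1. The list median was -0.44, against -0.09 over all genes. Osr1, a zinc finger transcription factor of embryonic mesenchyme, was at 4.37, 2.23, 1.84 and 4.96 FPKM in Lgr5-DTR and at 27.8, 20.6 and 45.8 FPKM in wild type. All 4 Lgr5-DTR values were far below the wild type ones (log2 -2.89, SE 0.34, limma adjusted p = 0.00216). Of 35 mesenchymal transcription factors tested, Osr1 alone passed, with the list median at -0.14. Sult1e1, which inactivates oestrogen by adding sulphate, averaged 29.0 FPKM in Lgr5-DTR and 91.1 FPKM in wild type and passed in 1 of the 7 fits that left out a library. Apod, a lipid-binding apolipoprotein, went the other way at 517 to 583 FPKM in Lgr5-DTR against 293 to 378 FPKM in wild type, and did not pass (log2 0.72, limma adjusted p = 0.0747). Wif1, a secreted Wnt antagonist, was at 468 to 629 FPKM in Lgr5-DTR and 655 to 986 FPKM in wild type and did not pass either (log2 -0.52, adjusted p = 0.316). Of the 33 Wnt ligands, R-spondins, receptors and antagonists tested, only Lgr5 was called. Of 13 Wnt target genes none was (median 0.00), where 1.17% of all tested genes were called.

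Of the 20 fibroblast markers, 9 were lower and none higher, where 1.1% of all genes tested were lower. This was the largest share of any list with 5 or more tested members. The lists were chosen with earlier results of these data known, so the share is a description. The counts of called members of the other lists are descriptions too, beside the same 1.1% of all genes. The 9 genes were Dpt, Clec3b, C3, Gsn, Col3a1, Fbln2, Cd34, Pi16 and Dcn. The list median was -0.77, and 19 of 20 differences were below 0. The summed FPKM of the list, in which Gsn has the largest share, was 9049, 9969, 7787 and 8563 in Lgr5-DTR replicates 1 to 4 against 17212, 16743 and 20169 in wild type. Gsn, which severs actin filaments, was at 3539, 4648, 2905 and 2827 FPKM in Lgr5-DTR and at 8626, 7988 and 11228 FPKM in wild type (log2 -1.43, SE 0.20, limma adjusted p = 0.00617). Even this very abundant transcript was separated without overlap. Clec3b, the tetranectin gene, was at 65.2, 56.5, 31.4 and 80.6 FPKM in Lgr5-DTR, against 254, 241 and 201 FPKM in wild type. Cd34, a surface sialomucin, averaged 81.7 against 183 FPKM, and Pi16, a peptidase inhibitor of adventitial fibroblasts, 79.4 against 168 FPKM. Both share exon sequence with another annotated gene and are uncertain. Of the 13 adventitial fibroblast markers Pi16 alone passed, and the median of that list was -0.79. Blood endothelial markers, which a stromal sort can hold, summed to 26.4 to 50.3 FPKM in Lgr5-DTR and 53.9 to 83.7 FPKM in wild type, with 0 of 9 called; their part in these differences was not tested.

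**Figure D2:**
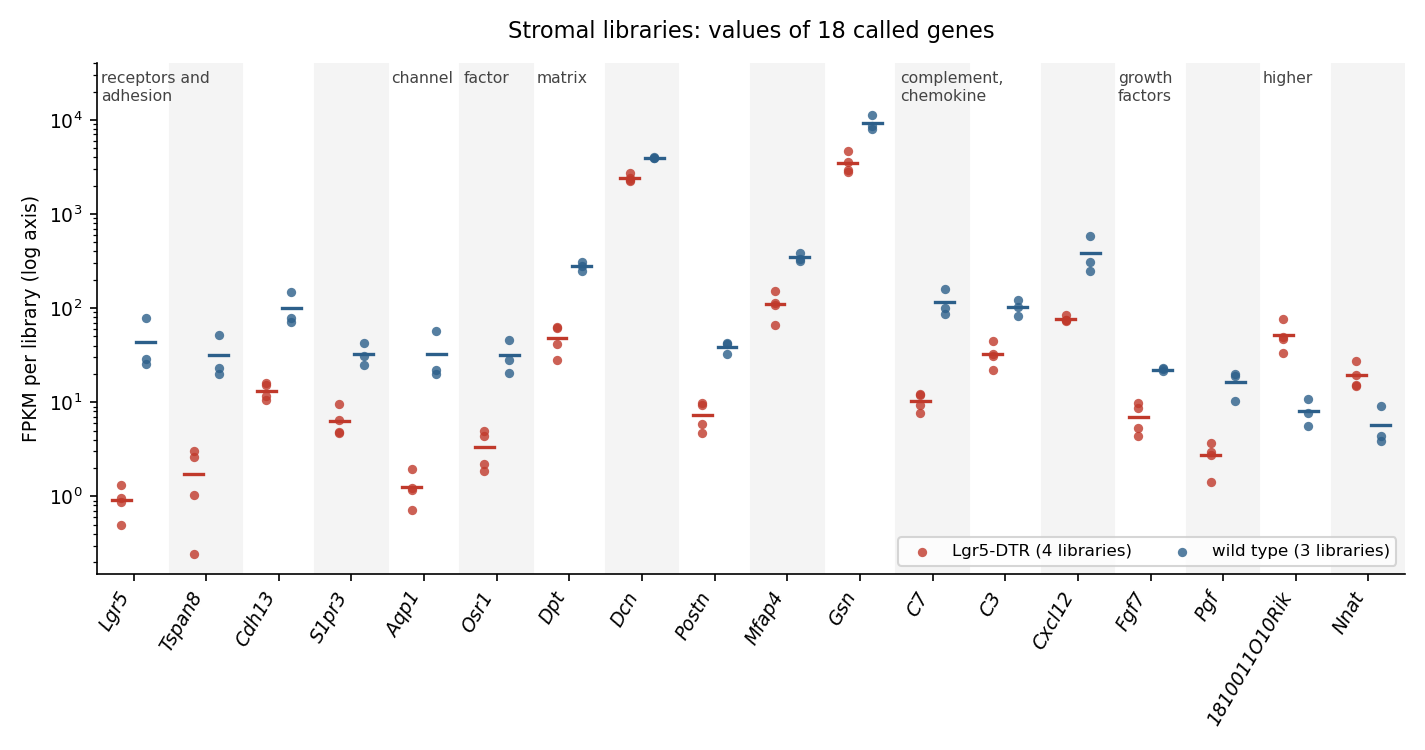
FPKM of 18 called genes in each stromal library on a log axis, with Lgr5-DTR libraries in red on the left and wild type libraries in blue on the right of each gene; a short line marks the group mean. The groups do not overlap in any of them, the wild type library with the highest Lgr5 also had the highest Aqp1, Tspan8, Osr1, C7, Cdh13 and Cxcl12, and Dcn and Gsn fell at the highest levels shown.

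Matrix genes of several classes were lower. Dpt encodes dermatopontin, a small matrix protein that binds decorin, and was at 60.8, 42.1, 28.1 and 62.6 FPKM in Lgr5-DTR and at 247, 279 and 307 FPKM in wild type. The wild type libraries lay close together, at several times each Lgr5-DTR value (log2 -2.56, SE 0.27, limma adjusted p = 0.00144). Dcn encodes decorin itself, a leucine-rich proteoglycan of collagen fibrils. It was at 2708, 2316, 2230 and 2412 FPKM in Lgr5-DTR and at 3920, 4025 and 3946 FPKM in wild type, the smallest called fall (log2 -0.72, SE 0.14, adjusted p = 0.0388), and its adjusted p was 0.0882 with TMM scaling. Dpt and Dcn were the 2 of 15 small proteoglycan genes called lower, with a list median of -0.72. Bgn, which encodes biglycan, was at 403 to 630 FPKM in Lgr5-DTR against 748 to 770 FPKM in wild type and did not pass (adjusted p = 0.161).

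Of 28 collagen genes tested, Col23a1, Col14a1 and Col3a1 were lower, and the list median was -0.52. Col23a1, a collagen anchored in the cell membrane, was at 14.1, 14.8, 15.8 and 20.7 FPKM in Lgr5-DTR and at 42.8, 54.6 and 95.8 FPKM in wild type (log2 -1.85, SE 0.28, limma adjusted p = 0.00859). It was separated even at the lowest wild type value. Col3a1, a fibril-forming collagen, averaged 156 ± 49.7 FPKM (SD, n = 4) in Lgr5-DTR and 374 ± 90.8 FPKM (SD, n = 3) in wild type, and its adjusted p was 0.0498, or 0.0882 with TMM scaling. Its partner in many tissues, Col1a2, was at 146 to 303 FPKM in Lgr5-DTR against 376 to 436 FPKM in wild type and did not pass (log2 -0.91, adjusted p = 0.112). Col3a1 shares exon sequence with an annotated noncoding gene and is uncertain.

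All 22 elastic fibre and cross-linking genes tested had a difference below 0, with a median of -0.53, and 4 passed. Mfap4, a microfibril-associated glycoprotein, was at 114, 66.6, 107 and 154 FPKM in Lgr5-DTR and at 318, 335 and 389 FPKM in wild type (log2 -1.70, SE 0.26, limma adjusted p = 0.0089). Ltbp1, which holds latent TGF-beta in the matrix, was at 0.183 to 1.55 FPKM in Lgr5-DTR and 5.84 to 10.2 FPKM in wild type. Emilin2, an elastin-interface glycoprotein, was at 2.58 to 4.01 FPKM in Lgr5-DTR against a narrow 11.7 to 12.9 FPKM in wild type (log2 -1.59, SE 0.22, adjusted p = 0.00552). The fourth gene was Fbln2, which encodes fibulin 2. Eln, the elastin gene itself, was named after its values were seen. It was at 18.9, 6.15, 6.92 and 35.9 FPKM in Lgr5-DTR and at 59.2, 111 and 244 FPKM in wild type, and despite a log2 difference of -3.05 it did not pass (SE 0.65, adjusted p = 0.0732). Its values varied several times over within each group.

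Among 21 matricellular genes and fibronectin, Postn, Vtn, Smoc1 and Fn1 were lower, with a list median of -0.68. Postn encodes periostin, a protein that helps to cross-link collagen, and was at 9.29, 9.74, 4.68 and 5.88 FPKM in Lgr5-DTR and at 42.5, 32.8 and 41.6 FPKM in wild type (log2 -2.29, SE 0.27, limma adjusted p = 0.00216). Each wild type library was above 3 times the highest Lgr5-DTR value. Vtn, the vitronectin gene, averaged 2.44 against 12.6 FPKM, Smoc1, a BMP antagonist of the SPARC family, 12.8 against 36.6 FPKM, and Fn1, the fibronectin gene, 4.62 against 13.4 FPKM in Lgr5-DTR and wild type stromal cells. Ecm1 and Sparc, more abundant members, were at 468 to 575 against 747 to 890 FPKM and at 494 to 1122 against 1263 to 1511 FPKM in the same order of groups, and did not pass. Outside the lists, Pcolce2, an enhancer of procollagen processing, was lower at 2.58 to 4.32 FPKM in Lgr5-DTR against 12.4 to 20.7 FPKM in wild type (log2 -2.05). So was Ccdc80, a secreted matrix-bound protein, at 22.1 to 33.6 FPKM in Lgr5-DTR against 95.6 to 116 FPKM in wild type (log2 -1.94, SE 0.21, adjusted p = 0.00144). Adamtsl4, an ADAMTS-like glycoprotein that binds fibrillin, was the 1 of 24 metalloproteinase-related genes called, at 2.96 to 4.52 against 10.1 to 20.1 FPKM. None of 16 basement membrane genes and none of 10 integrins passed, which for lists of this size is also what 1.17% called over all genes would give.

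Complement genes gave one of the steepest falls. C7, a component of the membrane attack complex, was at 11.9, 9.45, 7.74 and 12.1 FPKM in Lgr5-DTR and at 101, 87.4 and 158 FPKM in wild type (log2 -3.34, SE 0.26, limma adjusted p = 0.000318). Both groups were tight on the log scale and more than 7-fold apart at their nearest values. C3, the central component cleaved by all complement pathways, was at 22.3 to 45.1 FPKM in Lgr5-DTR and 83.1 to 123 FPKM in wild type (log2 -1.66, SE 0.25, adjusted p = 0.00943). They were the 2 of 18 complement genes called, and the list median, -0.12, was close to that of all genes.

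Of 19 chemokine genes tested, 4 were lower: Cxcl12, Cxcl13, Ccl19 and Ccl11. Cxcl12, which retains leukocytes and progenitors through the receptor CXCR4, was at 84.4, 75, 74.4 and 73.7 FPKM in Lgr5-DTR and at 313, 250 and 590 FPKM in wild type (log2 -2.21, SE 0.27, adjusted p = 0.00243). The Lgr5-DTR values were nearly identical. Cxcl13, an attractant of B cells, was at 1.71 to 5.69 FPKM in Lgr5-DTR against 12 to 22.9 FPKM in wild type, and Ccl11, an attractant of eosinophils, at 5.59 to 15.6 against 19.6 to 38.5 FPKM. Ccl19, which guides lymphocytes and dendritic cells, was listed at 0 in 3 Lgr5-DTR libraries and at 0.0307 FPKM in the other, against 1.59 to 4.12 FPKM in wild type. These Ccl19 values add up 2 entries of the same transcript, NM_011888, on chromosome 4 and on 4_JH584294_random, and are uncertain. Each entry was below 1 FPKM in wild type replicates 1 and 2, so Ccl19 met the filter only as a sum. Ccl19 passed the filter on low values only through the wild type libraries, as did 16 of the 118 lower genes in all. Agt, Aqp2 and Epha3 were among these 16, which had to differ to be tested. The 15 other chemokine genes did not pass, and the list median was -0.27.

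Single members of the growth factor lists fell. Fgf7, which stimulates epithelial cells through the receptor Fgfr2, was at 8.65, 9.89, 5.26 and 4.39 FPKM in Lgr5-DTR and at 21.3, 23.1 and 22.3 FPKM in wild type (log2 -1.59, SE 0.27, limma adjusted p = 0.0183). It was 1 of 12 FGF ligands and receptors (median -0.57), and no other passed. Tgfb2, a TGF-beta ligand, averaged 6.88 against 19.5 FPKM, and Gdf10, a BMP-related ligand, 68.5 against 165 FPKM in Lgr5-DTR and wild type stromal cells. Both were among the called members of a list of 35 TGF-beta and BMP pathway genes (median -0.18), and Tgfb2 was also the 1 called gene of 19 YAP and TAZ targets. Pgf, placental growth factor of the VEGF family, is in none of the lists and was picked from the calls. It was at 1.42 to 3.73 FPKM in Lgr5-DTR and 10.3 to 20.1 FPKM in wild type (log2 -2.22). Ntn1, the guidance cue netrin 1, was at 2.78 to 3.54 against 8.64 to 11.6 FPKM and Epha3, an ephrin receptor, at 0.0075 to 0.453 against 1.84 to 6.10 FPKM. Neuregulin 1, Nrg1, a ligand of ERBB receptors, had the largest difference above 0 among 30 other stromal growth factors, at 19.1, 26.2, 32.9 and 6.00 FPKM in Lgr5-DTR and 3.32, 5.21 and 1.86 FPKM in wild type. It did not pass (log2 2.16, SE 0.49, limma adjusted p = 0.071), and neither did any other gene of that list.

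Channels, adhesion molecules and receptors were among the steepest falls. Aqp1, a water channel, was at 1.22, 1.93, 1.17 and 0.716 FPKM in Lgr5-DTR and at 22.2, 19.8 and 56.6 FPKM in wild type (log2 -3.77, SE 0.35, limma adjusted p = 0.000929). Aqp2, the vasopressin-regulated water channel of the kidney, was at 0.0519 to 0.389 FPKM in Lgr5-DTR against 1.96 to 9.95 FPKM in wild type. It passed in 1 of the 7 fits that left out a library, and the fits without a wild type library could not test it. Aqp1 and Aqp2 were highest in wild type replicate 3, as Lgr5 was. Cdh13, a cadherin tethered to the membrane by a lipid anchor, was at 15.2, 15.9, 10.6 and 11.6 FPKM in Lgr5-DTR and at 79.5, 71.3 and 149 FPKM in wild type (log2 -2.76, SE 0.28, adjusted p = 0.00114). It and Tspan8 were the 2 of 33 cadherin, tetraspanin and adhesion genes called, and the list median was -0.04. S1pr3, a receptor for sphingosine 1-phosphate, was at 4.71 to 9.55 FPKM in Lgr5-DTR and 24.8 to 42.7 FPKM in wild type (log2 -2.21, SE 0.28, adjusted p = 0.00326). Pdlim3, which binds actinin, was at 8.22 to 19.6 FPKM in Lgr5-DTR and at 85.0, 70.0 and 225 FPKM in wild type (log2 -3.13, SE 0.41, adjusted p = 0.00437).

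In total 78 of the 118 lower genes were in none of the 58 lists, and the following groups among them were formed after their values were seen. A pair of genes of the angiotensin system were lower. Agt, which encodes angiotensinogen, was at 0.378 to 0.763 FPKM in Lgr5-DTR against 4.41 to 5.36 FPKM in wild type, and Ace, the angiotensin-converting enzyme, at 1.37 to 1.63 against 9.96 to 17.3 FPKM. Both were separated by several fold, and Ace shares exon sequence with another annotated gene. Several called genes encode enzymes, picked from the calls and with no list behind them. Inmt, an N-methyltransferase of indoles, was at 152 to 243 FPKM in Lgr5-DTR against 416 to 640 FPKM in wild type, and Gstm1, a glutathione transferase, at 242 to 330 against 502 to 653 FPKM. Sod3, the extracellular superoxide dismutase, was at 11 to 18 FPKM in Lgr5-DTR against 54.2 to 104 FPKM in wild type (log2 -2.30, SE 0.27, adjusted p = 0.00243). Aldh3a1, an aldehyde dehydrogenase, was at 1.63 to 2.59 against 7.87 to 24.7 FPKM, and Maob, Gsta3, Ces1d and Ces2g were also called. With TMM scaling Gstm1, Gsta3, Maob and Ces2g no longer passed (adjusted p = 0.0882, 0.081, 0.0768 and 0.0753). From a list, Ptgds, a prostaglandin D synthase and 1 of 2 called members of the 19 prostaglandin genes, was at 1.06 to 5.48 against 13.1 to 22.7 FPKM (log2 -2.54). Plac9a and Plac9b, and Ctla2a, an inhibitor of cysteine proteases, were lower as well, but each has a near copy in the genome, so their FPKM are uncertain.

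The 7 genes called higher were 1810011O10Rik, Pla2g2e, Nnat, Fam26f, Ptprn, Ctla2b and Nipal1. RefSeq names 1810011O10Rik as Tcim, a regulator of transcription. It was at 33.5, 49.5, 76.4 and 47.0 FPKM in Lgr5-DTR and at 7.64, 10.7 and 5.66 FPKM in wild type (log2 2.52, SE 0.29, limma adjusted p = 0.00216). The lowest Lgr5-DTR library was above 3 times the highest wild type one, and this was the 1 higher gene that passed in all 7 fits that left out a library. Nnat, which encodes the small membrane protein neuronatin, was at 14.9 to 27.6 FPKM in Lgr5-DTR and 3.90 to 9.06 FPKM in wild type. Nipal1, a magnesium transporter, was at 13.8 to 23 FPKM in Lgr5-DTR and 5.83 to 8.84 FPKM in wild type. Pla2g2e, a secreted phospholipase A2, was at 2.15 to 9.27 FPKM in Lgr5-DTR and 0.824 to 1.26 FPKM in wild type, with an adjusted p of 0.0498. The remaining 3 averaged 2.11 to 2.59 FPKM in Lgr5-DTR and at most 0.227 FPKM in wild type. None of these 3 reached 1 FPKM in a wild type library. They passed the filter on low values only through the Lgr5-DTR libraries and had to differ to be tested. 1810011O10Rik, Nnat, Ptprn and Ctla2b share exon sequence with other annotated genes and are uncertain. Lgr5-DTR replicate 3 was the highest library in 6 of the 7, and without it 3 genes were higher. This library was also the lowest Lgr5-DTR library for 52 of the 118 lower genes (44.1%, or 21% over every gene tested). It was the only stromal library with transcripts marked as low in data (424), and 2603 of its FPKM lay above their own upper limit, where the other stromal libraries had at most 3.

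**Figure D3:**
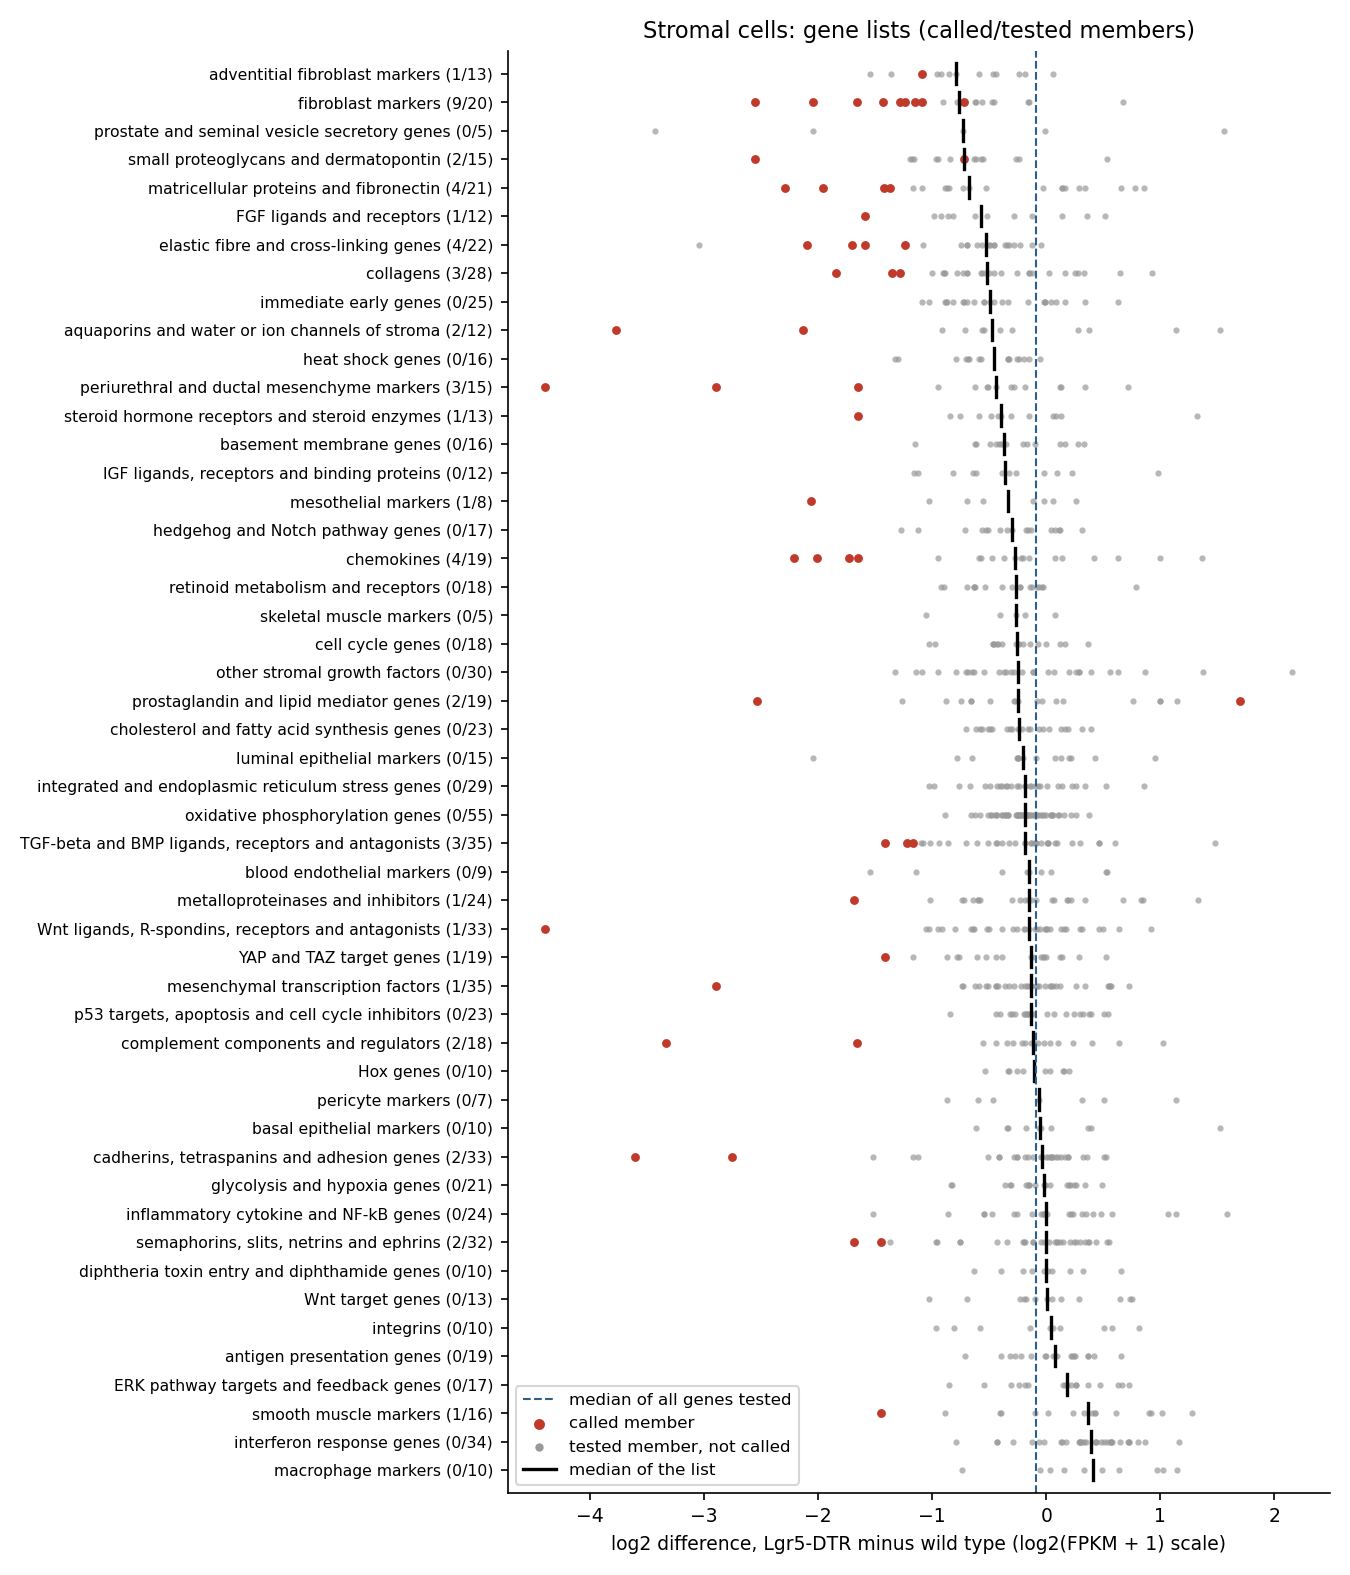
Differences on the log2(FPKM + 1) scale, Lgr5-DTR minus wild type, of the tested members of the 50 gene lists with at least 5 of them, ordered by list median (black bar); red points passed the test and the dashed line marks the median of all genes, -0.09. Fibroblast, proteoglycan, matricellular, collagen and elastic fibre lists lie to the left, and smooth muscle, interferon and macrophage lists lie to the right with no member called higher.

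Several lists leaned towards higher values without a called rise. Smooth muscle markers had a median of 0.37 over 16 tested members, and the 1 called member, Mustn1, was lower, at 3.15 to 6.02 FPKM in Lgr5-DTR against 11.8 to 17.5 FPKM in wild type. Acta2, smooth muscle actin, was at 181, 152, 123 and 156 FPKM in Lgr5-DTR and at 107, 73.8 and 67.0 FPKM in wild type. The groups did not overlap, and the gene did not pass (log2 0.90, SE 0.22, limma adjusted p = 0.0924). The myosin Myh11 did overlap, at 4.37 to 12.3 FPKM in Lgr5-DTR and 3.28 to 6.57 FPKM in wild type. Macrophage markers had a median of 0.41 over 10 tested members, 0 of them called, and summed to 27.3 to 48.1 FPKM in Lgr5-DTR and 23.1 to 43.0 FPKM in wild type. Their defining member Adgre1 was at 0.56 FPKM or less in every library. Interferon response genes had a median of 0.39 over 34 tested members with 0 called, and Isg15, a ubiquitin-like interferon product, was at 375 to 671 FPKM in Lgr5-DTR and 215 to 432 FPKM in wild type. The list of 12 insulin-like growth factor genes leaned lower (median -0.36, 9 below 0) with 0 called. Its member Igfbp3, which binds these factors, was at 684 to 1153 FPKM in Lgr5-DTR and 388 to 544 FPKM in wild type and did not pass (log2 0.98, adjusted p = 0.0666). Igfbp6, another of that family, was at 406 to 614 against 843 to 913 FPKM (log2 -0.82, adjusted p = 0.0594).

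Lists tied to the action of the toxin, to stress and to cell death had no called member, which for lists of this size is also what 1.17% called over all genes would give. The 10 genes of toxin entry and of diphthamide synthesis, the modification of elongation factor 2 that the toxin attacks, had a median of -0.00 and none passed. The same held for 29 genes of the integrated and endoplasmic reticulum stress responses (median -0.19), 23 genes of p53 and apoptosis (-0.13), 18 cell cycle genes (-0.26) and 17 ERK targets (0.18). Heat shock genes (median -0.46, 16 of 16 below 0) and immediate early genes (median -0.50, 20 of 25 below 0) had lower medians than these, also with no call, and their part in the other differences was not tested. None of the 55 oxidative phosphorylation genes, 21 glycolysis and hypoxia genes and 10 Hox genes passed. At this number of libraries 36% of simulated log2 changes of 1 and 87% of changes of 2 were recovered. The changes were placed only in genes with a mean log2(FPKM + 1) above 2, with noise drawn independently for each gene and library. In that setting changes of 2-fold or less were mostly not detectable, and lower genes were not covered.

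The start regions of 4 steep fallers are shown because they come from different functional groups and chromosomes. Each is the RefSeq promoter window of mouse GRCm38.p6, from 250 bases before to 50 bases after the annotated start, 5′ to 3′ on the gene's strand, with capitals marking a match to one of 6 motifs.
Dpt, chr1:164796413-164796712, plus strand: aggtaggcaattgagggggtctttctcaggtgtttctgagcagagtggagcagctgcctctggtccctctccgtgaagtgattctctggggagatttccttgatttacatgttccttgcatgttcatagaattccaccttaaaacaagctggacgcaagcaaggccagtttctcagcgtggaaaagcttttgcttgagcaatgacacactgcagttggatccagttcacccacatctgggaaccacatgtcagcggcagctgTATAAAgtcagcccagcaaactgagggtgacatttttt
C7, chr15:5063724-5064023, minus strand: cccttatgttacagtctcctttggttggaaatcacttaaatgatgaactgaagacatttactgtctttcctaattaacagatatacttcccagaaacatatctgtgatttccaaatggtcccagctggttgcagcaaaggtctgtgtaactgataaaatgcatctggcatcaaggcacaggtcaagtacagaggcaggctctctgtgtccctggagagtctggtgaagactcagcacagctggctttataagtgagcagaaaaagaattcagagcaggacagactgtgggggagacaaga
Cxcl12, chr6:117168285-117168584, plus strand: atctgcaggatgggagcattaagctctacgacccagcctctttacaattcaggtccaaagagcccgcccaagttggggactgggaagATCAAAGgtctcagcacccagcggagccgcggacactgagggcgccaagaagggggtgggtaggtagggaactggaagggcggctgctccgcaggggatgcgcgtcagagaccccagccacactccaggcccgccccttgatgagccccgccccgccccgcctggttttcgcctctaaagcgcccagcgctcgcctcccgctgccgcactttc
Tspan8, chr10:115817034-115817333, plus strand: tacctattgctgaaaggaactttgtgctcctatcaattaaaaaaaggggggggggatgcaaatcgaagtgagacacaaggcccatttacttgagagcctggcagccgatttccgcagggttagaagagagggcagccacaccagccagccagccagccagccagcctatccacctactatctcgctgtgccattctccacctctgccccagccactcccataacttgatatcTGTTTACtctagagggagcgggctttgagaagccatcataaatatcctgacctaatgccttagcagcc

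The motifs were TATAAA on the forward strand, and on both strands CTTTGAT of TCF and LEF factors, TGANTCA of AP-1, GGAATG of TEAD factors, AGAACA of steroid receptors and TGTTTAC of forkhead factors. They and the 4 genes were chosen after the calls were known. Dpt held TATAAA, Cxcl12 the TCF and LEF motif on its reverse strand, Tspan8 the forkhead motif, and C7 none of the 6. The Dpt motif began 12 bases after the annotated start of its window. The Dpt transcript measured here starts at 164796732, beyond the end of that window. Of the 118 lower genes 81 had a RefSeq window. TATAAA was in 15 of these (18.5%), against 45 of 478 windows (9.41%) of the other genes at least 10 times higher in wild type stromal than in epithelial cells and 420 of 8579 windows (4.90%) of all tested genes. The TCF and LEF motif was in 1 of the 81 (1.23%, against 2.53% of all tested genes), AP-1 in 4 (4.94% against 4.94%), TEAD in 12 (14.8% against 11.8%), the steroid receptor motif in 11 (13.6% against 11.7%) and forkhead in 2 (2.47% against 2.52%). A match describes the letters and not a bound site.

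For the matrix genes Fbln2 and Adamtsl4, 1 annotated transcript was called lower and the other was not, a description of transcripts chosen after their values were seen. Over all transcripts 69 of 12381 were lower (0.557%) and 5 higher (0.0404%). The Fbln2 transcript NM_007992 was at 11.5, 16.9, 11.2 and 14 FPKM in Lgr5-DTR and at 45.0, 42.2 and 47.9 FPKM in wild type (log2 -1.69, SE 0.21, limma adjusted p = 0.00738). Its sister NM_001081437 was at 10.03, 13.8, 8.03 and 5.78 FPKM in Lgr5-DTR and at 9.18, 6.84 and 12.1 FPKM in wild type, with overlapping groups (log2 -0.02). The share of Fbln2 FPKM on NM_007992 was 53.5% to 70.8% in Lgr5-DTR and 79.8% to 86.1% in wild type libraries. For Adamtsl4 the share on NM_144899 was 62.6% to 73.9% in Lgr5-DTR and 78.9% to 100% in wild type libraries. Its other transcript, NM_001301705, was at 1.02, 1.30, 0.856 and 1.69 FPKM in Lgr5-DTR and at 2.26, 0 and 4.25 FPKM in wild type, too widely spread to show whether it differed (log2 -0.23, SE 0.49). For Cd34, of which 1 transcript passed (NM_001111059, log2 -1.29, adjusted p = 0.027) and the other did not (NM_133654, log2 -1.08, adjusted p = 0.0571), the share on NM_001111059 was 21.3% to 29.7% against 28.5% to 32.0%, and these ranges overlapped. The estimates divide reads between transcripts that share most of their sequence, so the shares are less certain than the sums.

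Most of the lower genes had their highest wild type level in stromal cells. In 98 of the 118 (83.1%) every wild type stromal library was above every wild type basal and luminal library, against 22.7% of all tested genes. The same 3 wild type stromal libraries entered the calls, which favour genes that are high there, so this share is partly fixed by the choice of genes and is a description. In 67 (56.8%, against 6.89%) the wild type stromal mean was also over 10 times both epithelial means. An exception was Ace, at 12.6 FPKM in stromal and 99.0 FPKM in luminal wild type cells. Of the lower genes 51 were tested in neither epithelial population.

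**Figure D4:**
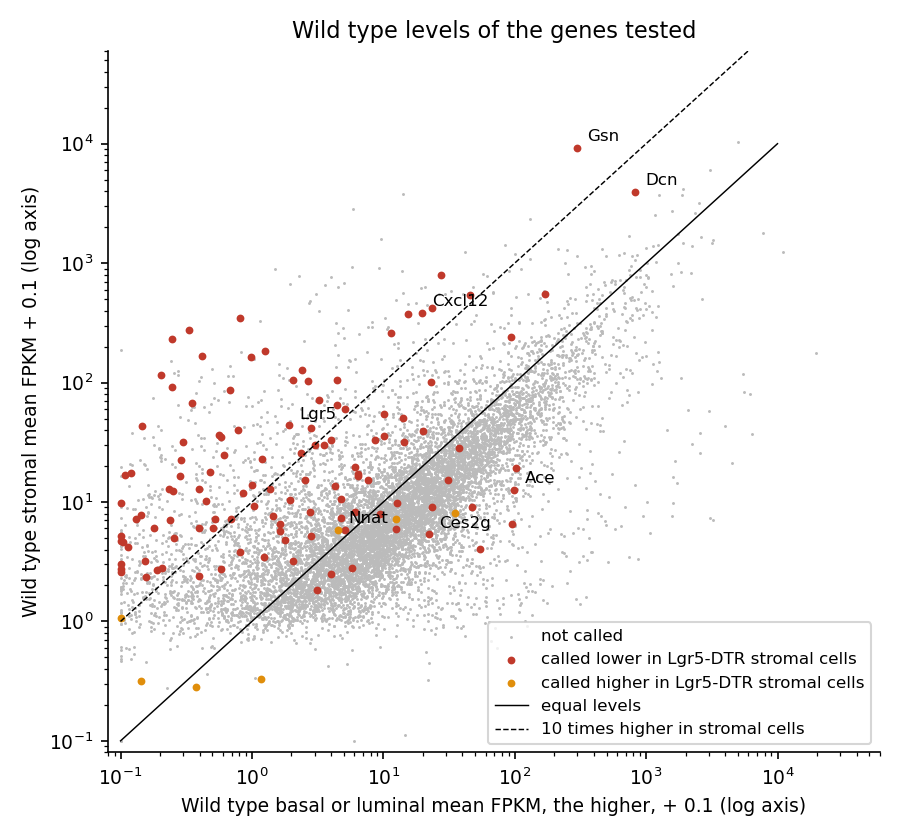
Mean FPKM in wild type stromal cells (vertical log axis) against the higher of the wild type basal and luminal means (horizontal log axis), each with 0.1 added, for all genes tested in stromal cells. Of the 118 genes lower in Lgr5-DTR stromal cells (red), 67 lie above the dashed line of 10 times higher levels in stromal cells with no overlap between libraries, and Ace and Ces2g lie below the line of equal levels.

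The difference in stromal cells was set against that in the sorted epithelium by an interaction term in limma. These genes were chosen for a stromal fall, and the interaction uses the same 7 stromal libraries, so the sign of the interactions and their number beside that over all genes are partly fixed by the choice and are given as a description. Against basal cells 25 of the 55 lower genes were called, each with the stromal difference below the basal one, where 2.98% of 8980 genes were called in all (2.09% below 0 and 0.891% above). Dmkn, a secreted skin protein, was lower in stromal cells (log2 -1.71) and higher in basal cells, at 239 FPKM in Lgr5-DTR against 4.64 FPKM in wild type (log2 5.57), an interaction of -7.27 (SE 0.66, adjusted p = 4.69e-05). Anxa8, an annexin, was at -1.83 in stromal and 3.94 in basal cells, Tspan8 at -3.61 and 2.38, Calca, which encodes calcitonin and its related peptide, at -1.33 and 2.34, and Ltbp1 at -2.10 and 1.86. Cdh13 too was lower in stromal and higher in basal cells, at 49.0 FPKM in Lgr5-DTR basal cells against 22.8 FPKM in wild type (log2 1.06). Not every lower gene differed in this way. In basal cells 11 of the 55 were called lower (4.46% of all genes) and 11 higher (6.5%), and the lower included Cxcl12 (log2 -1.52), Dcn (-1.01), Col3a1 (-0.87), Col23a1 (-1.73) and Fbln2 (-1.97), each of these with an interaction that was not called.

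Against luminal cells 33 of the 51 lower genes, chosen in the same way, had a called interaction, all with the stromal difference below the luminal one, where 2.51% of 9255 genes were called (2.43% below 0 and 0.0756% above). Postn was lower in stromal cells (log2 -2.29) and at 139 FPKM in Lgr5-DTR against 19.99 FPKM in wild type luminal cells (log2 2.51). Ccdc80 was at log2 -1.94 in the stroma, against 2.24 in basal and 1.93 in luminal epithelium, so that a gene of mainly stromal expression in wild type was higher in both Lgr5-DTR epithelial populations. S1pr3 was at -2.21 and 1.58, Ccl11 at -1.65 and 1.83, and Col3a1 at -1.29 and 1.19 in stromal and luminal cells. The luminal fit called 6 of the 51 higher, namely Postn, S1pr3, Ccdc80, S100a4, Ccl11 and Col3a1, and none lower. Over all genes 2.62% were called higher and 0.513% lower in luminal cells. S100a4, like Col3a1, no longer passed the stromal test with TMM scaling (limma adjusted p = 0.0762 for S100a4). Of the 7 genes called higher in stromal cells, 1810011O10Rik was also higher in basal (log2 1.43, adjusted p = 0.017) and luminal cells (log2 1.31, adjusted p = 0.0178), and Nipal1 in basal cells (log2 2.73). The luminal interactions depended on scaling in number, with 232 over all genes and 106 under TMM.

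**Figure D5:**
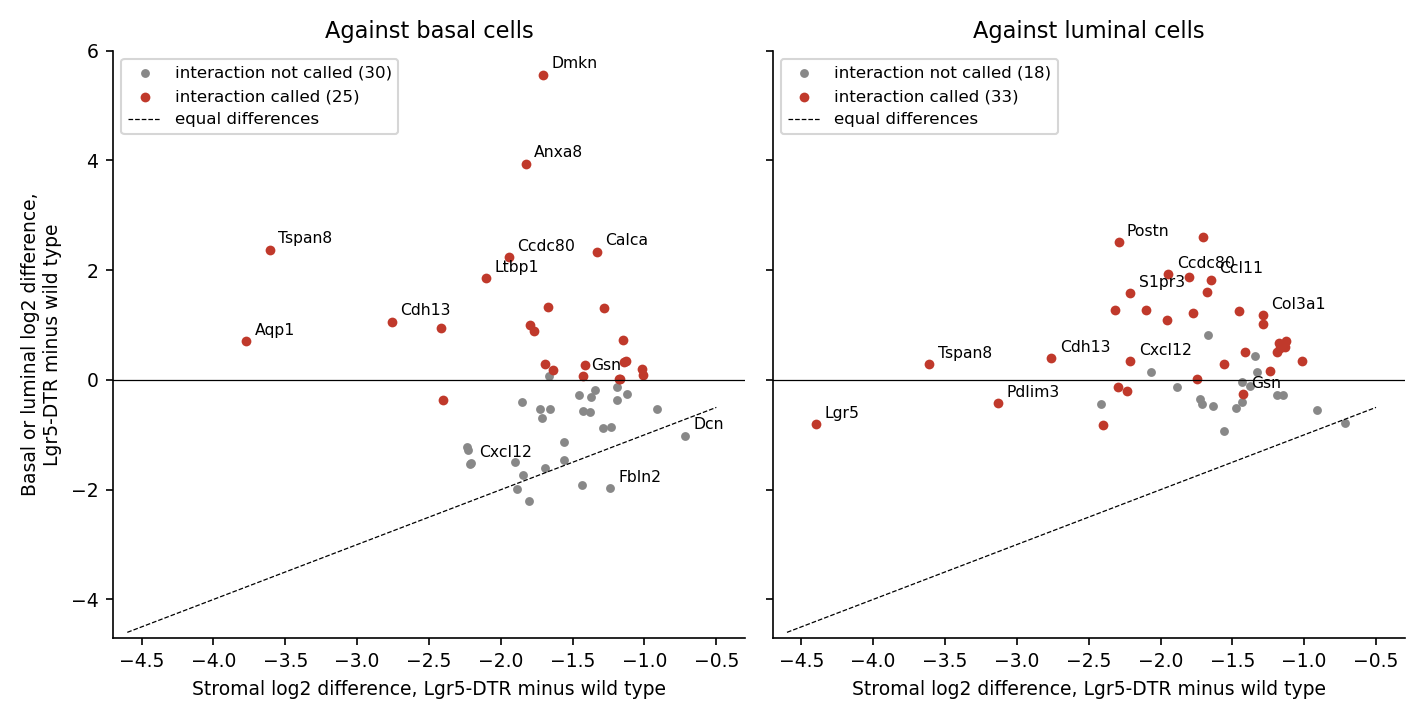
Differences on the log2(FPKM + 1) scale, Lgr5-DTR minus wild type, of the genes lower in stromal cells: stromal difference (horizontal axis) against the basal (left panel, 55 genes) or luminal difference (right panel, 51 genes). Red points had a called interaction, the dashed line marks equal differences, and Dmkn, Anxa8, Tspan8 and Postn are among those above 0 on the vertical axis.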

How the data were processed

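The authors deposited 1 table of FPKM per RefSeq transcript for each library, made with TopHat2 and Cufflinks on mm10, per the submitters' processing notes. No versions are named there. The deposited coverage, the mean read depth over a transcript, was used with transcript length only to estimate depth. Libraries were made from amplified low-input cDNA with a kit that keeps no strand, so antisense partners cannot be told apart. Reads shared between transcripts are divided by estimation, so paralogs and overlapping genes are uncertain (27 called genes share at least 50 exonic bases with another gene).

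FPKM were summed per gene symbol, genes with failed or capped estimates (Amd1, Amd2 and Ly6e) were left out, and genes with at least 1 FPKM in at least 3 of 7 libraries were tested. limma 3.58.1 in R 4.3.3 was run on log2(FPKM + 1) with trend and robust options and Benjamini-Hochberg adjustment at 0.05. Fold changes on that scale understate the change of low genes. Population differences were interaction terms in limma. Python 3.11.15 with numpy 2.4.6 and pandas 2.3.3 served for tables. On simulated data the stromal test recovered 36% of log2 changes of 1 and 87% of changes of 2, with 2.38% false calls. The simulated noise was independent for each gene and library, so no simulated effect acted on a library as a whole. The simulation therefore cannot give the share of false calls in the real libraries.

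The members and gene lists were chosen with earlier results of these data known. Named genes were the higher genes, the 30 largest non-overlapping falls that reached 5 FPKM in either group mean, called members, strongest and most abundant members of the lists, the smallest interaction p-values and called genes within 20 megabases of Lgr5. Other named genes were chosen after their values were seen. Alternatives were other pseudocounts, filters and scalings, array weights, a replicate block and leaving out single libraries.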

Additional observations from a re-analysis of the deposited data

Results flagged for a closer look

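Single libraries stood apart from the other 3 of the Lgr5-DTR stromal group in 8 of 112 groups of values, by a gap to the nearest library that took up most of the range. Chance gives about 1 group in 20. Cxcl12 was at 84.4 FPKM and Apod at 517 FPKM in replicate 1, where Ccl19 was at 0.0307 FPKM against 0 in the other libraries of the group. In replicate 3, Agt was at 0.763 FPKM and Nkain4 was listed at 0. Secretory genes of prostate and seminal vesicle summed to 821 FPKM in replicate 1, erythrocyte markers to 41.3 FPKM in replicate 3, and replicate 4 held 5.26 gigabases on transcripts, the lowest depth of the group.

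The Lgr5-DTR minus wild type difference was further below in stromal than in basal cells, by a called interaction in limma (stromal minus basal, log2), for the following genes. They were chosen for their stromal difference, which is part of the interaction, so its sign is partly fixed. The first were Aqp1 (-4.48), Tspan8 (-5.99), Cdh13 (-3.82), Ctla2a (-3.37), Ace (-2.03), Ltbp1 (-3.96) and Ccdc80 (-4.19). There followed Gsn (-1.49), Cd34 (-1.87), Tgfb2 (-1.68), Adamtsl4 (-1.99), Ces2g (-1.19) and Anxa8 (-5.77). There followed Dmkn (-7.27), Calca (-3.67), Plac9b (-1.82), Angptl4 (-1.23), S100a4 (-2.67) and Cd109 (-3.01). Of genes higher in stromal cells, Nipal1 had an interaction of -1.55, with the larger rise in basal cells, and Nnat one of 2.39.

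Against luminal cells the called interactions (stromal minus luminal, log2) were likewise below 0. They included Lgr5 (-3.59), Tspan8 (-3.89), Pdlim3 (-2.71), Cdh13 (-3.16), Ace (-1.58), Olfml2b (-3.59) and Sod3 (-2.17). They also included Postn (-4.80), Nrep (-2.04), S1pr3 (-3.79), Cxcl12 (-2.55), Ltbp1 (-3.38), Vtn (-3.05) and Ccdc80 (-3.88). They also included Gsn (-1.18), Col3a1 (-2.47), Fbln2 (-1.40), Ccl11 (-3.48), Tgfb2 (-1.93) and Mustn1 (-2.71). They also included Ces2g (-1.85), Dmkn (-4.32), S100a4 (-2.996) and Cd109 (-3.27).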

How the results depend on the processing

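The count of lower genes, 118, was 35 with no filter on low values, 67 with a mean of at least 5 FPKM, 69 after quantile normalization, 800 with array weights and 304 with the spread of all 19 libraries. The count of higher genes, 7, was 3 with a pseudocount of 5, 1 with no filter, 3 with a mean of at least 5 FPKM, 235 with array weights and 62 with the spread of all 19 libraries. Leaving out both libraries numbered 1, chosen after seeing the data, gave 17 lower and 3 higher. Leaving out 1 library gave 30 to 189 lower genes, 1 to 43 higher genes and 13 (without wild type replicate 3) to 137 (without Lgr5-DTR replicate 4) called transcripts, against 74. Called transcripts numbered 48 with a pseudocount of 0.1 and 25 with no filter. Basal interactions, 268 in all, numbered 135 with a mean of at least 5 FPKM and 113 (without Lgr5-DTR basal replicate 2) to 369 (without Lgr5-DTR basal replicate 1) when 1 library was left out. Luminal interactions, 232 in all, numbered 147 with that filter, 106 with TMM scaling and 82 (without Lgr5-DTR luminal replicate 1) to 268 (without Lgr5-DTR replicate 4). Genes called near Lgr5 were 1 within 5 megabases and 4 within 50. The cause of these changes was not tested.

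Same-numbered stromal libraries deviated from their group means with correlations of 0.376, 0.486 and -0.0457. These replicate numbers follow the sample order in the descriptions and not the numbers in the sample titles. Of the same-numbered stromal libraries, only those numbered 1 also share a title number. The highest correlation, 0.576, was between Lgr5-DTR replicate 4 and wild type replicate 3, and the remaining ones were -0.531 to 0.110. Whether libraries of the 2 groups were paired or shared a batch is not stated and cannot be told from these values. A replicate block, which leaves the unpaired Lgr5-DTR replicate 4 without weight, gave 727 lower and 314 higher genes, where leaving out that library alone gave 189 and 43. A random block by genotype and title number, which is a different numbering, gave 457 basal interactions. The Lgr5 difference over 3 pairs by replicate number was -43.1 FPKM (exact p = 0.25, the smallest possible). Leaving out 1 library gave Lgr5 differences of -52.4 to -26.5 FPKM. Of the settings tried for named genes in stromal cells, 1467 kept direction and side of the threshold, 381 lost the call, 45 gained it and 10 changed sign, all in the uncalled Pecam1 and Cnot2. Pecam1 was at 0.012 with TMM scaling, 0.15 with quantile normalization, 0.046 with array weights and -0.11 to 0.10 when 1 library was left out. Cnot2 was at 0.014 with TMM scaling, 0.012 with quantile normalization, 0.13 with array weights, 0.27 with the replicate block and -0.26 to 0.27 when 1 library was left out. No setting tested depth by itself.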
